A study of Mus musculus with 4 samples.

Results

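The genes described here encode the subunits of the mouse oxidative phosphorylation machinery, together with the assembly factors that carry the same gene symbols. They were taken from the GENCODE annotation of mm10 as nuclear protein-coding genes whose symbols start with Nduf, Sdha to Sdhd, Uqcr, Cyc1, Cox4 to Cox8 or Atp5. The rule, which used no measured value, gave 99 of the 21755 protein-coding genes on the chromosomes that held peaks. The 99 gene identifiers carry 98 symbols, because Atp5o has 2 overlapping identifiers. By the known place of their products, 44 belong to complex I, 8 to complex II, 9 to complex III, 20 to complex IV and 18 to complex V. By kind, 26 are core subunits, 51 accessory subunits, 8 tissue isoforms, and 14 assembly factors or other proteins.

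Binding of RBPJ was measured by HT-ChIPmentation, a chromatin immunoprecipitation in which the captured DNA is tagged by Tn5 transposase on the beads. RBPJ binds DNA and relays Notch receptor signals to target genes. The study asked which genomic regions it occupies in alveolar macrophages (AMs), which live in the airspace of the lung and clear surfactant and microbes. AMs came from the lungs of WT mice, described in the methods as 9-wk-old and of the C57BL/6J background, by bronchoalveolar lavage and FACS. The samples were 2 RBPJ libraries (an Abcam antibody against RBPJ) and 2 Input libraries, chromatin of the same cell type without immunoprecipitation. The mice carried no transgene or deletion and received no treatment, so the only contrast is RBPJ against input. That contrast is already inside the peak calls. Input values of their own were not analysed here. The labels do not say whether the 2 RBPJ libraries came from separate animals, so their spread may be technical.

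Oxidative phosphorylation takes electrons from NADH (complex I) and succinate (complex II) through ubiquinone, complex III and cytochrome c to oxygen at complex IV. The protons pumped on the way drive ATP synthesis by complex V. Most subunits are encoded in the nucleus and are expressed from promoters without a TATA box, where ETS factors such as GABP, NRF1, YY1 and SP1 are known regulators. AMs live in an oxygen-rich space and are known to depend on mitochondrial respiration and lipid oxidation.

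Replicate 1 held 106228 peaks covering 35.6 Mb, and replicate 2 held 47224 peaks covering 14.4 Mb, so most counts below are larger in replicate 1. Overlapping peaks of both libraries gave 25454 shared regions. A promoter was defined as 1 kb on either side of a transcription start site (TSS), and the fold is the deposited enrichment over input at the peak summit, on a linear scale. The lower fold is the smaller of the 2 libraries' values in a shared region. Fold values mostly rose in steps of about 0.254 in replicate 1 and 0.335 in replicate 2, which is why equal values recur. Of all peaks, 70.3% in replicate 1 and 78.0% in replicate 2 lay on such a step. As a check of the label, 9 of 10 AM marker genes had a shared promoter region, among them Mrc1, Itgax and Cd68. At 5 of these 9 (Siglecf, Pparg, Chil3, Car4 and Ear2) the summit lay over 1 kb from the TSS and the region only reached into the window. Of markers of other cells, 0 of 8 T and B lymphocyte genes, 1 of 5 alveolar epithelial genes (Epcam), 1 of 4 endothelial genes (Pecam1) and 1 of 4 neutrophil genes (S100a8) had one.

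By overlap of peaks with the promoter, RBPJ peaks lay at most oxidative phosphorylation genes. A region shared by both libraries was found at 62 of the 99 members (62.6%, 95% Wilson interval 52.8 to 71.5), beside 33.7% of all protein-coding genes. In replicate 1, 84 members had a promoter peak (84.8%, 76.5 to 90.6), beside 46.1% of all genes. In replicate 2, 69 members had one (69.7%, 60.0 to 77.9), beside 37.5%. The intervals cover counting over genes only, and read depth is unknown from the peak lists. The 62 members had 62 distinct regions. Stricter rules took the shared count below most members. It was 39 (39.4%, beside 22.6% of all genes) with the summits of both libraries within 100 bp. With a −log10 q of at least 5 it was 42 (42.4%, beside 24.0%). All genes include those silent in AMs, and no expression values were used here.

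The members' promoters are rich in CpG, and such promoters held RBPJ peaks more often across the genome. In the RefSeq promoter table, 78 of the 98 symbols matched, and 60 of these (76.9%) had a CpG-rich window, defined as at least 50% G and C with a CpG observed-to-expected ratio of at least 0.6. The same held for 50.4% of the 16433 protein-coding symbols in the table. Among all genes with a CpG-rich promoter, 55.0% had a shared region, 72.7% a peak in replicate 1 and 60.5% a peak in replicate 2. Of the 61 member identifiers with a CpG-rich promoter, 40 (65.6%, 53.0 to 76.3) had a shared region, 54 (88.5%) a peak in replicate 1 and 44 (72.1%) a peak in replicate 2. Against that background the members' share of shared regions was close, since 55.0% lies inside their interval. The 72.7% of replicate 1 lies below the members' interval of 78.2 to 94.3. Of the 18 matched identifiers whose promoter was not CpG-rich, 11 (61.1%, 38.6 to 79.7) had a shared region. The share over all genes with such a promoter was not computed.

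**Figure D1:**
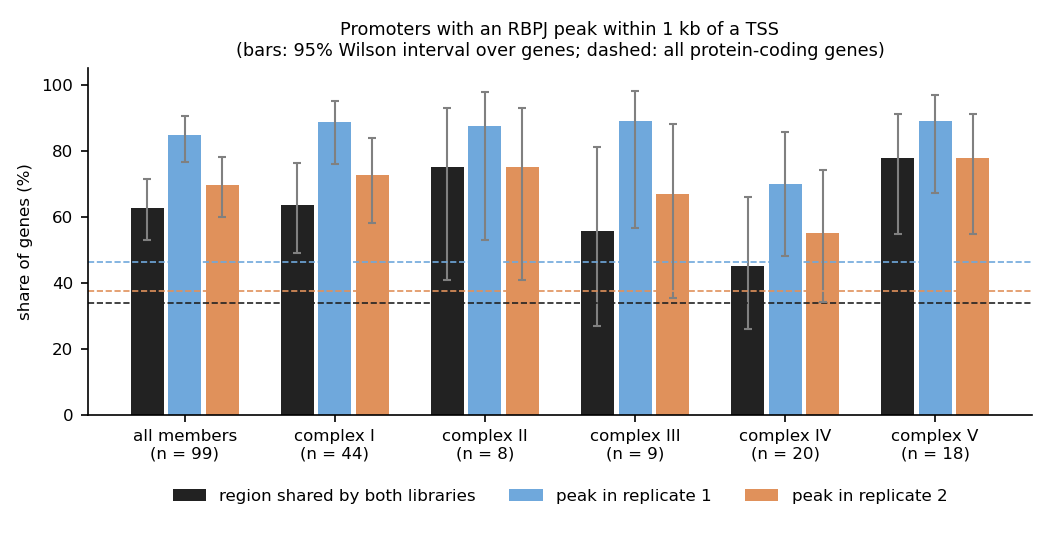
Share of member genes (%) with an RBPJ peak within 1 kb of a TSS, for all 99 members and for each respiratory complex. Bars give shared regions (black), peaks of replicate 1 (blue) and peaks of replicate 2 (orange), error bars the 95% Wilson interval over genes, and dashed lines the share among all protein-coding genes (33.7%, 46.1% and 37.5%). Each complex lies above the dashed lines, with complex IV lowest at 45.0% and complex V highest at 77.8% for shared regions.

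The share differed between complexes by less than their intervals. A shared promoter region was found at 28 of 44 complex I genes (63.6%, 48.9 to 76.2), 6 of 8 complex II genes (75%, 40.9 to 92.9) and 5 of 9 complex III genes (55.6%, 26.7 to 81.1). Complex IV had 9 of 20 (45.0%, 25.8 to 65.8) and complex V 14 of 18 (77.8%, 54.8 to 91.0). All these intervals overlap, and no test between complexes was made. By kind of protein, 21 of 26 core subunits (80.8%, 62.1 to 91.5), with both identifiers of Atp5o counted, had a shared region. The count was 31 of 51 accessory subunits (60.8%, 47.1 to 73.0), 8 of 14 assembly factors or other proteins (57.1%) and 2 of 8 tissue isoforms (25%, 7.15 to 59.1). Over all protein-coding genes the share was 33.7%.

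**Figure D2:**
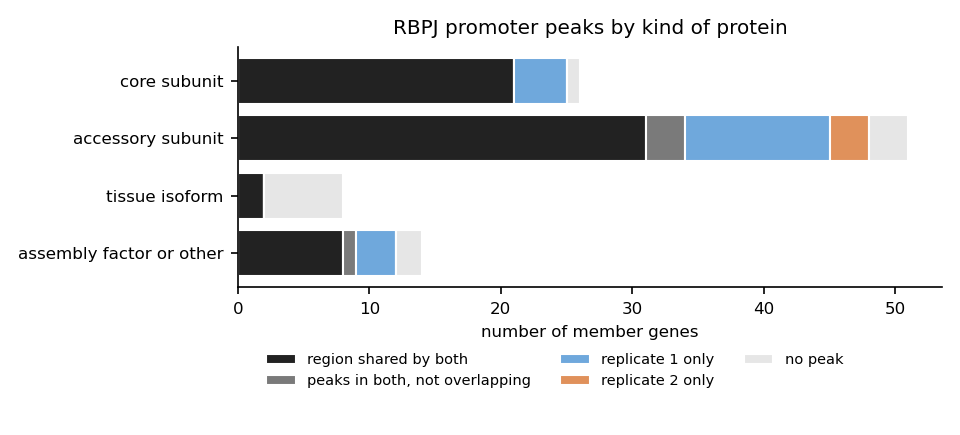
Number of member genes by kind of protein (rows) and by the libraries in which the promoter held an RBPJ peak (colors). Of the 26 core subunits 21 had a shared region and 1 had no peak, whereas 6 of the 8 tissue isoforms had no peak in either library. The core subunit without a peak is 1 of the 2 identifiers of Atp5o, which are both counted.

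Several members' peaks held the short sequences of factors known from respiratory promoters, and these are printed because the position of the RBPJ signal is described from them below. The core sequence that RBPJ binds, TGGGAA, lay within 100 bp of the summit at 11 of the 62 member regions. That is 17.7%, beside 18.2% over all genes with a shared region, so the core was not particular to the members. For the longer form GTGGGAA the shares were 4.84% and 4.64%. The 3 members with the longer form GTGGGAA were Ndufb3, Sdhb and Atp5k, and at Atp5d the core lay at the sequences known for ZFP143, a zinc-finger factor of housekeeping promoters, where it overlapped CCCAGNATG and abutted ACTACAA. The sites below are read from RefSeq GRCm38 (mm10) in the direction of the RBPJ core, with the core in capitals. They lie at chr1:58586465-58586494 (plus strand), chr4:140961329-140961358 (minus), chr5:108434483-108434512 (minus) and chr10:80142188-80142217 (minus).
Ndufb3: agctgcaaagtgTGGGAAataatctctact
Sdhb: cgaacaccgcggTGGGAAgccggcctctca
Atp5k: taaccagccccgTGGGAAcgctcggctatc
Atp5d: ggtgggtcattcTGGGAAttgtagttttct

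Read on the plus strand at chr10:80142182-80142210 and chr10:80142192-80142220, the same Atp5d site shows both ZFP143 sequences, ACTACAA in the first line and CCCAGNATG in the second, each in capitals.
Atp5d, first ZFP143 sequence: aggcgaagaaaACTACAAttcccagaatg
Atp5d, second ZFP143 sequence: aactacaattCCCAGAATGacccacccgg

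The ETS sequence CCGGAAG was found within 100 bp of the summit at 14 member regions (22.6%), beside 16.1% over all genes with a shared region. The NRF1 sequence GCGCATGCG was found at 2 (Atp5l and Atp5k, 3.23%), beside 1.61%. Shown with the motif in capitals are the ETS sites of the strongest regions that held one (Ndufa13 at chr8:69901759-69901787 plus, Atp5l at chr9:44920937-44920965 plus, Ndufs3 at chr2:90904731-90904759 minus, Sdhaf2 at chr19:10525176-10525204 plus). The NRF1 site of Atp5l lies at chr9:44920965-44920993 (plus), and the YY1 sequence AAGATGGC of Uqcrh at chr4:116075349-116075378 (plus).
Ndufa13, ETS: cttgctgcgatCCGGAAGtcagtccctcc
Atp5l, ETS: ttcatgttggtCCGGAAGatcggtgaagt
Ndufs3, ETS: cccgcgtccgcCCGGAAGaagagtcactg
Sdhaf2, ETS: tggaccccaagCCGGAAGgcgcaaccgag
Atp5l, NRF1: tgggggaaatGCGCATGCGttattggttt
Uqcrh, YY1: ctgacctcttcAAGATGGCggcccgcgggt

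The 250 bases before the RefSeq start of Atp5l (GRCm38.p6, chr9:44920743-44920992, minus strand) are shown as the strongest complex V promoter. Capitals mark the NRF1 sequence, whose first base lies 241 bp before the start, and the ETS sequence 212 bp before it, each in its reverse form.
Atp5l, promoter: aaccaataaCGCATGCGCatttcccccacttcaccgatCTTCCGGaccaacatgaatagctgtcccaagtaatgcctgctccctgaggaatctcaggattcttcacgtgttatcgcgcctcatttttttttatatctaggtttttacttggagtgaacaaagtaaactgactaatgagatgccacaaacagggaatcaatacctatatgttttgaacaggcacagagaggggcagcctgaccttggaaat

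In complex I, which oxidizes NADH, all 7 nuclear core subunits had a shared region. With 7 genes the Wilson interval is 64.6 to 100%. The strongest was Ndufs1, the large iron-sulfur subunit of the arm that accepts electrons from NADH, with folds of 12.4 (replicate 1) and 17.7 (replicate 2; chr1:63176601-63177412). Its summit lay 206 bp before the TSS, in an untranslated exon of Eef1b2, a translation elongation factor gene that starts 3 bp away on the opposite strand. The signal can therefore be assigned to either gene. Ndufs7, which holds the last iron-sulfur cluster before ubiquinone, had 19.8 and 8.70 (chr10:80248019-80249975). It had the highest fold of any member in replicate 1 but not in replicate 2. Ndufs3 followed with 7.87 and 10.4. The folds were 9.64 and 5.36 for Ndufs8, a carrier of iron-sulfur clusters, and 6.60 and 5.02 for Ndufv1, which binds NADH. They were 5.33 and 4.69 for Ndufv2, another iron-sulfur subunit.

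Of the 29 accessory subunits of complex I, 16 (55.2%, 37.5 to 71.6) had a shared region. The highest was Ndufa13, also known as a cell death regulator, with 11.4 and 14.1 (chr8:69901251-69902134). Its summit lay 778 bp downstream of the TSS in an intron, nearest to the start of the kinase gene Tssk6, and inside an intron of Yjefn3. Ndufa13 had 3 shared regions at its promoter. The one with Ndufa13 as the nearest gene, 136 bp past its TSS (chr8:69902315-69902580), had 4.57 and 7.70. Ndufb3, of the membrane arm, had 11.2 and 13.7 (chr1:58586243-58586784), in its untranslated first exon 20 bp after the TSS and 81 bp before that of Fam126b on the opposite strand. Ndufb5, another membrane arm subunit, had 12.4 and 8.10, with the summit in an untranslated exon of Mrpl47, a mitochondrial ribosomal protein gene on the opposite strand. At the lower end, Ndufab1, the mitochondrial acyl carrier protein, had 4.82 and 3.35, and Ndufb10 6.09 and 3.35. Among the 8 complex I assembly factors 5 had a shared region, with Ndufaf8 (10.1 and 6.73) and Ndufaf3 (6.34 and 9.37) the highest.

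In complex II, the succinate dehydrogenase, all 4 subunits had a shared region (interval 51.0 to 100%). Sdhb, the iron-sulfur subunit, had 6.31 and 6.69 (chr4:140960692-140961478), with the summit in its untranslated first exon. Sdhd, a membrane anchor, had 8.12 and 4.35 in front of Timm8b, a gene of mitochondrial protein import. Sdhc, the other anchor, had 4.57 and 4.02, and Sdha, the flavoprotein, 3.55 and 4.35. Of the 4 assembly factors 2 had a shared region. Sdhaf2, which helps attach the flavin to Sdha, had 7.87 and 7.36 (chr19:10524720-10525621), and Sdhaf3 had 6.85 and 6.36. The 2 libraries lay close together at both.

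In complex III, which passes electrons to cytochrome c, 5 of 9 genes had a shared region. None of the redox-active core subunits in the list was among them, since Cyc1 (cytochrome c1) and Uqcrfs1 (the Rieske iron-sulfur protein) had a peak in replicate 1 only, with folds of 4.57 and 5.07. The highest was Uqcrh, the hinge protein that helps bind cytochrome c1, with 18.3 and 11.0 (chr4:116074536-116075642). Its summit lay 253 bp before the TSS in an untranslated exon of Lrrc41, whose TSS is 198 bp away on the opposite strand. Uqcrq, a ubiquinone-binding subunit, had 9.39 and 8.70 (chr11:53430183-53431258). Uqcrb followed with 4.82 and 5.36, Uqcr10 with 10.9 and 4.02, and Uqcrc1, a structural core protein, with 6.08 and 4.02. Uqcr10 is the member of this complex whose libraries lay farthest apart relative to their values.

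In complex IV, cytochrome c oxidase, the catalytic subunits are mitochondrially encoded and are not members. Of the 11 nuclear subunits that are not tissue isoforms, all 11 had a peak in replicate 1 (74.1 to 100%), 8 in replicate 2, and 6 a shared region (54.5%, 28.0 to 78.7). The highest was Cox7a2, the widely expressed form of subunit 7a, with 10.1 and 8.03 (chr9:79758931-79760292). Cox5b had 6.09 and 7.31 with the summits of both libraries at the same base, 27 bp after the TSS. Ndufa4, first described in complex I and now placed in complex IV, had 6.09 and 7.03. Its summit lay 19 bp before the TSS. Cox5a followed with 7.36 and 5.36, Cox6b1 with 8.88 and 4.35, and Cox8a with 7.10 and 4.02.

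Of the 8 tissue isoforms of complex IV, 2 had a promoter peak in replicate 1, 2 in replicate 2 and 2 a shared region (25% each, 7.15 to 59.1). Over all protein-coding genes the shares were 46.1%, 37.5% and 33.7%, all inside that interval. That interval does not meet that of the 11 other subunits in replicate 1 but overlaps theirs in replicate 2 (43.4 to 90.3) and for shared regions, and no test was made. No peak was found in either library at Cox4i2 (a lung and low-oxygen form), Cox6a2 and Cox8b (heart and muscle forms), Cox7b2 and Cox8c (testis forms) and Ndufa4l2 (induced by low oxygen). Their widely expressed counterparts Cox4i1, Cox6a1, Cox8a, Cox7b and Ndufa4 all had a peak in replicate 1. In replicate 2 Cox6a1 and Cox7b had none, and of these 5 a shared region was found at Cox8a and Ndufa4. The isoforms with a shared region were Cox7a1, the heart and muscle form of subunit 7a, with 6.85 and 7.42, and Cox6b2, a testis form. At Cox6b2 the folds were 5.07 and 4.28, and its summit lay 1486 bp past the TSS, in a region that only reaches into the window. Cox7a2l, a relative of Cox7a2 that links complexes III and IV, had 6.34 and 4.02.

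In complex V, the ATP synthase, 14 of 18 genes had a shared region. The highest was Atp5l, subunit g of the membrane part, with 14.7 and 9.71 (chr9:44920615-44921716), 248 bp before the TSS and outside protein-coding genes. All 3 genes for the c subunit, whose ring turns with proton flow, had one. The folds were 11.2 and 6.36 for Atp5g1 (chr11:96075638-96076525), 8.88 and 5.02 for Atp5g2 and 6.85 and 6.02 for Atp5g3. Atp5d, the delta subunit, had 10.9 and 6.02 (chr10:80140993-80142426). In the catalytic head, Atp5c1 (gamma) had 5.84 and 8.03, Atp5a1 (alpha) 7.36 and 3.68, and Atp5b (beta) 4.57 and 6.02. Atp5b had 3 shared regions at its promoter, and the values given are those of the one with the highest lower fold, 1015 bp before its TSS. The region nearest to the TSS, at 119 bp, had 14.2 in replicate 1 and 3.35 in replicate 2. Atp5j, subunit F6, had 9.13 and 4.35 in a region nearest to Gabpa, which encodes the DNA-binding subunit of the ETS factor GABP and starts 379 bp away on the opposite strand.

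**Figure D3:**
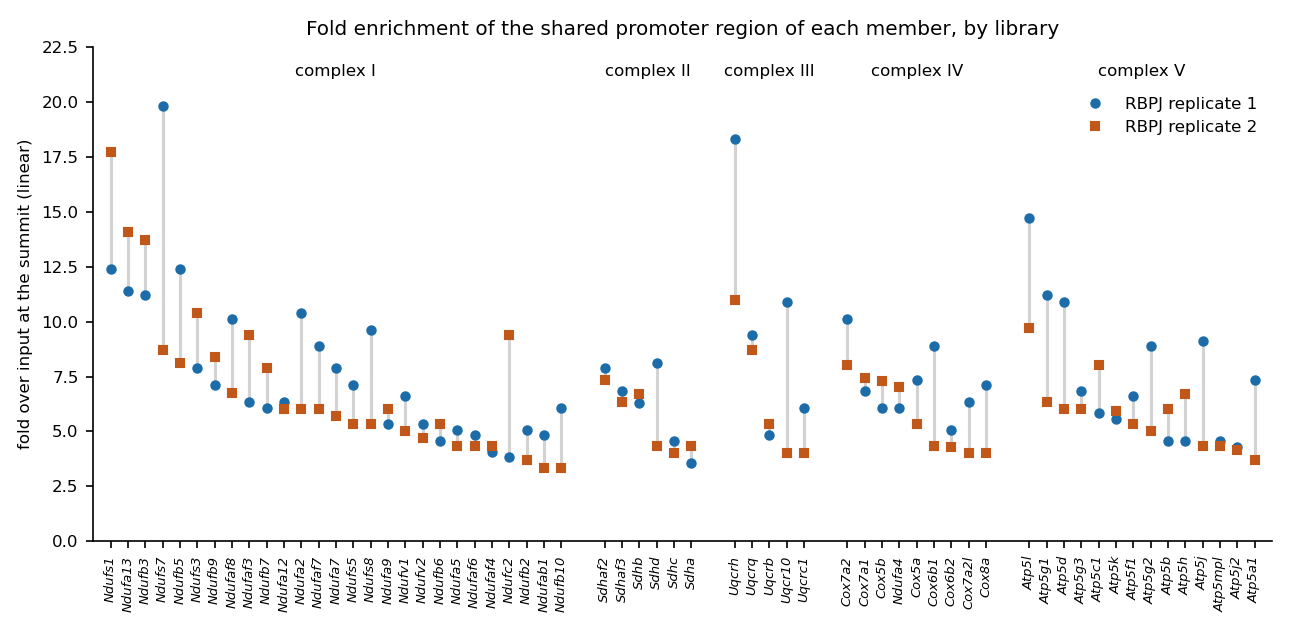
Fold over input (linear) at the shared promoter region of 61 of the 62 members that had one, ordered by complex and by the lower of the 2 values. Circles give replicate 1 and squares replicate 2, and grey lines join the libraries. Ndufs1 has the highest lower fold at 12.4, and replicate 1 lies above replicate 2 at 41 of the 62 members.

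The fold at the members' regions was close to that of other bound promoters. The median fold over the 62 regions was 6.85 in replicate 1 and 6.02 in replicate 2, beside 7.10 and 5.71 over the 7324 genes with a shared region. The median lower fold was 5.36, beside 5.58. When all these genes were ranked by lower fold and divided into 4 equal bins, 13 members lay in the top bin (from 7.03), 17 in the next, 12 in the one after it and 20 in the lowest. At or above the 90th percentile were 6 members, among them Ndufs1, Ndufa13, Ndufb3, Uqcrh and Atp5l. The members' regions spanned a median of 563 bp, beside 645 bp.

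The summits lay close to the starts of the genes. Their median distance from the nearest TSS was 92.5 bp over the members, beside 170 bp over all genes with a region, and 34 of 62 (54.8%) lay within 100 bp, beside 36.0%. Upstream of the TSS lay 43 and downstream 19. By annotation, 17 summits fell in an untranslated exon of the member, 5 in an intron of it, 5 outside it but in another protein-coding gene, and 35 outside any protein-coding gene. None fell in a coding exon of a member. By complex, the median distance was 56.5 bp in complex I, 95.5 bp in II, 302 bp in III, 96.0 bp in IV and 87.5 bp in V. Complex III, with 5 regions, was the only complex with no summit within 100 bp.

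**Figure D4:**
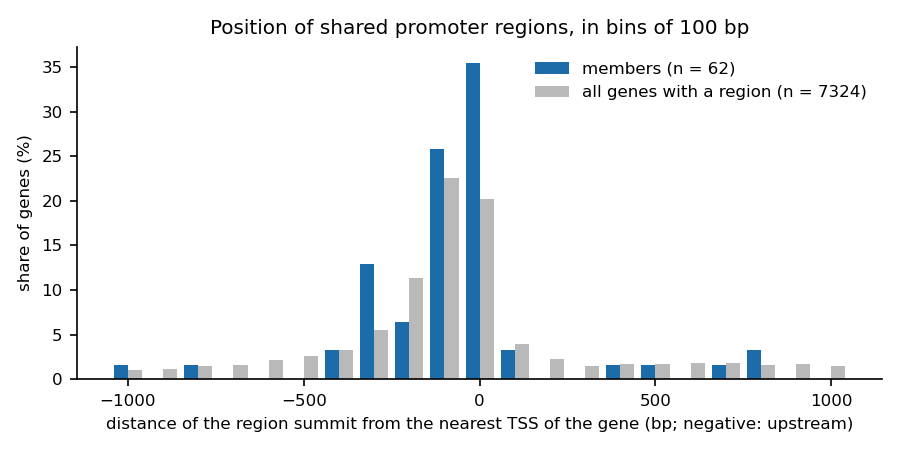
Position of the summit of the shared promoter region relative to the nearest TSS of the gene (bp, negative upstream), as the share of genes (%) in bins of 100 bp, for the 62 members (blue) and all 7324 genes with a region (grey). Summits farther out (1 member and 555 genes) are not drawn. The bin around the TSS holds 35.5% of the members and 20.2% of all genes.

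Many members share their promoter with another gene, so a peak there cannot be assigned to 1 of the 2. Another protein-coding TSS lay within 1 kb for 32 of the 99 members, on the opposite strand for 31 of them. Among these 32, 23 (71.9%, 54.6 to 84.4) had a shared region, beside 66.6% of all protein-coding genes with such a neighbor. Among the 67 members without one, 39 (58.2%, 46.3 to 69.3) did, beside 29.0% of all genes without one. Of the 62 regions, 50 had the member as the nearest gene and 12 had another gene. Among the 3 X-linked members (Ndufa1, Ndufb11 and Cox7b) none had a shared region, on a chromosome where 10.5% of genes had one, beside 34.7% on the autosomes.

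The remaining members had peaks in 1 library, or none. At 4 members (Ndufa6, Ndufaf5, Cox4i1 and Cox6c) both libraries had a promoter peak but the peaks did not overlap. At Cox4i1 they lay 750 bp (fold 8.37, replicate 1) and 21 bp (fold 4.02, replicate 2) past the TSS. Replicate 1 alone had a peak at 18 members, with a median fold of 5.07 (range 3.04 to 7.87), below the 6.85 at members with a shared region. The highest of these were Cox7c with 7.87, Ndufb11 with 6.85 and Cox6a1 with 5.84. Replicate 2 alone had a peak at 3 members, which were Ndufa1 (4.35), Uqcrc2 (4.35) and Ndufa8 (2.97). The 12 members with no promoter peak were the 6 isoforms given above, Ndufb8, Ndufc1 and Ndufs6 of complex I, the assembly factor Sdhaf1, Atp5s, and 1 of the 2 identifiers of Atp5o. The other Atp5o identifier, the stalk subunit that confers oligomycin sensitivity, had a peak in replicate 1 only (5.41).

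Shared regions anywhere in the genome were also given to the gene with the nearest TSS. By this measure 60 members (60.6%, 50.8 to 69.7) had at least 1 region, beside 40.5% of all genes. These 60 held 86 regions, of which 58 had the summit within 1 kb (67.4%), beside 30.8% of all 25454 regions. The other 28 regions belonged to 17 members. The highest in lower fold was a region 18008 bp past the TSS of Cox4i1 (chr8:120685054-120686993), with folds of 10.9 and 11.0. It was the first of 4 regions downstream of that gene, the farthest at 29773 bp, all within the annotated body of Gm20388. Next came a region 13989 bp inside Sdhaf2 (11.9 and 8.03, chr19:10510545-10512484), where 5 regions had this gene as the nearest. A region 180251 bp past the TSS of Cox6c lay within Vps13b (8.88 and 7.36). Regions 5123 bp past Atp5h (13.3 and 7.06) and 31630 bp before Uqcrfs1 (10.7 and 6.21) followed. Nearest position does not show which gene such a region acts on.

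The searched sequences were counted at the members' summits and at those of all genes with a region. TGGGAA (either strand) occurred within 100 bp of the summit at 11 of 62 member regions (17.7%, 10.2 to 29.0), beside 18.2% of the 7324 genes' regions, and GTGGGAA at 3 (4.84%), beside 4.64%. The count for TGGGAA was 6 around the summits of replicate 1 and 13 around those of replicate 2, so it depends on the library, and the share over all genes was not computed for those summits. In member windows the core occurred 14 times, of which 3 were part of GTGGGAA and 1 overlapped CCCAGNATG. CCGGAAG occurred at 14 (22.6%, 14.0 to 34.4), beside 16.1%. GCGCATGCG occurred at 2 (3.23%), beside 1.61%, and AAGATGGC at 5 (8.06%, 3.49 to 17.5), beside 3.32%. ACTACAA occurred at 5 (8.06%), beside 4.71%, and CCCAGNATG at 1 (1.61%), beside 1.95%. The SP/KLF sequence GGGCGG occurred at 21 (33.9%), beside 37.1%, and the cAMP response element TGACGTCA at 1 (1.61%), beside 2.59%. For these sequences the share over all genes lay inside the members' interval, except AAGATGGC, where 3.32% lay just below it. The NFY sequence CCAAT occurred at 14 (22.6%, 14.0 to 34.4), beside 34.4%.

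In the promoters themselves, the ETS, NRF1, YY1, ZFP143 and TGACGTCA sequences were more frequent among members than among all genes. GGGCGG and TGGGAA were less frequent. These shares were not tested. In the windows from 250 bp before to 50 bp after the RefSeq start, CCGGAAG occurred in 21 of 78 members (26.9%), beside 13.4% of the 16433 symbols. GCGCATGCG occurred in 10 (12.8%), beside 2.73%, and AAGATGGC in 10 (12.8%), beside 3.64%. ACTACAA occurred in 8 (10.3%), beside 4.30%, CCCAGNATG in 4 (5.13%), beside 2.38%, and TGACGTCA in 4 (5.13%), beside 2.65%. CCAAT was near equal, in 34 (43.6%), beside 42.2%. GGGCGG occurred in 37 (47.4%), beside 51.3%, and TGGGAA in 15 (19.2%), beside 27.3%. Among members, CCGGAAG was found in 16 of the 51 windows with a shared region (31.4%) and 5 of the 27 without (18.5%), whereas TGGGAA was found in 9 of 51 (17.6%) and 6 of 27 (22.2%). GCGCATGCG was found in 5 of 51 (9.80%) and 5 of 27 (18.5%). These are matches of letters and not measured binding sites of the factors.

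**Figure D5:**
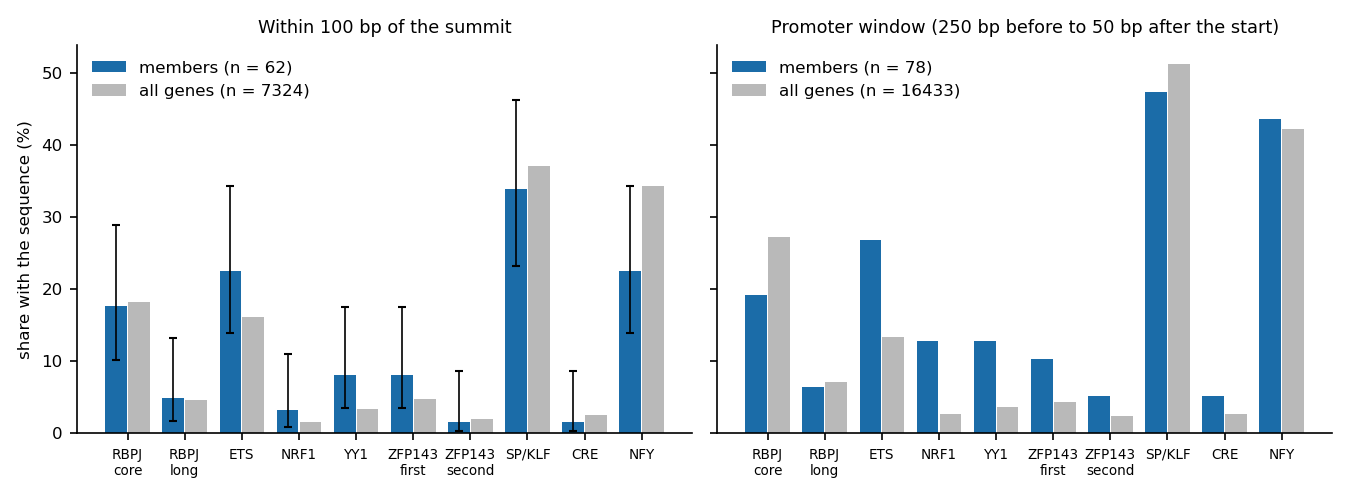
Share (%) of regions or promoters with each searched sequence on either strand, named by its factor, for members (blue) and all genes (grey). On the left are the windows within 100 bp of the summit (62 members, 7324 genes), with 95% Wilson intervals for the members. On the right are the promoter windows (78 members, 16433 genes), where the NRF1 sequence occurs in 12.8% of members and 2.73% of all.

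TGGGAA was found in every complex, at a share over all member regions (17.7%) close to that over all genes with a region (18.2%). It was at the summits of 3 of 28 complex I, 1 of 6 complex II, 1 of 5 complex III, 1 of 9 complex IV and 5 of 14 complex V regions. The 5 in complex V were Atp5d, Atp5k, Atp5b, Atp5mpl and Atp5j2. The site of Ndufa5, an accessory subunit of complex I, lay 2 bp from the summit, and those of Uqcrc1 and Cox6b2 9 bp from it. At Sdhb it lay 23 bp and at Atp5d 20 bp away, whereas at Ndufb3 (76 bp) and Atp5k (84 bp) it lay near the edge of the window. Such distances were not computed over all genes. The distances given were each measured from 1 library's summit. The summits of the 2 libraries lay 106 bp apart at Ndufa5, 227 bp at Uqcrc1 and 477 bp at Cox6b2. They lay 139 bp apart at Sdhb, 84 bp at Atp5d, 232 bp at Ndufb3 and 15 bp at Atp5k. Except at Atp5k, this gap exceeded the distance given, so the placement holds for 1 library only. The median gap was 82.5 bp over the members' regions, beside 84.0 bp over all genes with a region. The folds at Atp5k, subunit e, were 5.58 and 5.95, and its window held the RBPJ, ETS and NRF1 sequences together. At Ndufs1, Ndufa13 and Ndufs7, which like Ndufb3 are high in lower fold, TGGGAA was not found in the window.

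Genes outside the list that serve or regulate the same process were also counted. Over 6 lists of such genes, 49 of 64 (76.6%) had a shared promoter region, beside 62.6% of the members and 33.7% of all protein-coding genes. The share ran from 33.3% for complex V assembly to 88.9% for regulators of respiratory genes. For complex IV assembly and copper delivery it was 13 of 19, with Taco1, an activator of mitochondrial translation, at 12.4 and 8.58 and Pet100 at 10.7 and 8.79. For complex I assembly it was 5 of 6, led by Foxred1 (12.4 and 8.03), for complex III assembly 4 of 6, led by Bcs1l (8.12 and 9.04), which inserts the Rieske protein, and for complex V assembly 1 of 3 (Atpaf2, 9.89 and 3.68). For electron carriers and ubiquinone synthesis it was 10 of 12, with Cycs, cytochrome c, at 8.12 and 6.02 and Coq4 at 15.2 and 9.40. For regulators of respiratory genes it was 16 of 18. Gabpb1 and Gabpb2, the partner subunits of GABP, had 7.87 and 11.0 and 10.9 and 16.1, Yy1 had 7.87 and 9.37, and Nrf1 3.81 and 3.35. Tfam, the mitochondrial transcription factor, had peaks in both libraries that did not overlap, and Ppargc1a, a coactivator of mitochondrial biogenesis, had none.

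Other housekeeping gene groups had shares as high or higher. A shared region was found at 77 of 83 cytosolic ribosomal protein genes (92.8%, 85.1 to 96.6), 57 of 78 mitochondrial ribosomal protein genes (73.1%, 62.3 to 81.7) and 27 of 40 proteasome subunit genes (67.5%, 52.0 to 79.9). The interval of the oxidative phosphorylation genes (52.8 to 71.5) lies below that of the cytosolic ribosomal proteins and overlaps those of the other groups. No test of these differences was made.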

How the data were processed

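RBPJ HT-ChIPmentation of sorted WT AMs gave 2 RBPJ and 2 Input libraries, and the deposited files are peak lists of the 2 RBPJ libraries. Per the labels and methods, the authors trimmed reads with Cutadapt, aligned them to mm10 with Bowtie2, filtered them with SAMtools (properly paired, non-duplicate, high mapping quality) and called peaks in each library over input with MACS3 (q threshold 0.05). The submitters' processing notes also name CASAVA and bcl2fastq 2.20.0.422. Each deposited peak has a fold enrichment (a ratio to input at the summit), a −log10 p, a −log10 q, a summit position and a score. The fold, −log10 q and summit were used, and the score and −log10 p were not. A threshold set on reads per library makes the number of peaks depend on depth, which the deposited values do not give.

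Shared regions are the merged spans of peaks of both libraries that overlap by at least 1 bp. Where a promoter held several, the region with the highest lower fold was used, and its summit was taken from the library where the fold was higher. TSSs came from GENCODE vM21 basic transcripts, and sequences from RefSeq GRCm38. Because every per-gene value is a presence or a fold in 2 libraries, no test across genes was run. Shares have 95% Wilson intervals over genes, which are not independent replicates. Named genes were, per complex, up to 4 members with the highest lower fold, all members without a peak, the 3 highest of those found in 1 library, the isoform pairs, the 5 highest distal regions and the 5 highest for each sequence. The other genes named in the text were added to describe whole subunit groups, and were chosen after their values were seen. Ndufa4 and Ndufa4l2 were placed in complex IV. The members and lists were chosen with earlier results of these data known. Alternatives tried were the promoter window, a −log10 q of at least 5, comprehensive transcripts, the summit position, subunits only, promoters not shared with another gene, each library alone and other motif windows. Functions were tested on simulated data. Python 3.11.15, pandas 2.3.3, NumPy 2.4.6, SciPy 1.17.1, pysam 0.24.0 and matplotlib 3.10.9 were used. The values of 1 member are not reported here by name and are not drawn, but the member is included in the counts and medians.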

Additional observations from a re-analysis of the deposited data

How the results depend on the processing

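No paired analysis was possible because the RBPJ and Input samples share replicate numbers but only the RBPJ libraries had values, and the results come from no test. Of 86 alternative values of 11 results, 68 stayed within the limits set (1.5 times for a count, the spread of the libraries' medians for a fold) and 18 moved. The cause was not tested unless fewer peaks or genes enter by construction.

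With summits of both libraries within 100 bp, 39 members kept a shared promoter region (39.4%, beside 22.6% of all genes), of which 15 in complex I and 2 in complex III, and 36 members were nearest to a region. Leaving out members that share a promoter gave 39. With a −log10 q of at least 5, 42 members had a shared region (42.4%, beside 24.0%). Complex II then had 3, complex III 3 and complex IV 5, replicate 2 alone had 42, and the median lower fold was 6.09. With each library alone, members with a promoter peak ranged from 69 to 84, complex I from 32 to 39, complex II from 6 to 7, complex III from 6 to 8, complex IV from 11 to 14, complex V from 14 to 16, and members nearest to a region from 70 to 91. The median fold was 6.85 from replicate 1 and 6.02 from replicate 2 in the shared regions, and 5.36 to 6.20 over each library's own promoter peaks. TGGGAA was found at 17 member regions within 200 bp, and at 6 around the summit of replicate 1. Counting Ndufa4 and Ndufa4l2 in complex I, an alternative chosen after seeing the data like the medians over single libraries, gave 29 and 8 in complexes I and IV.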
